A study of Drosophila melanogaster with 2 samples.

Results

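The small heat shock genes Hsp22, Hsp23, Hsp26, Hsp27, Hsp67Ba, Hsp67Bb and Hsp67Bc and the Hsp90 gene Hsp83 of Drosophila melanogaster were examined for occupancy by Broad. These 8 genes were listed by symbol, out of 13968 annotated protein-coding genes, and every peak summit in a gene or within 2000 bp of it was taken. All 8 were found in the Ensembl annotation on dm6, Hsp67Bb under its other name CG4456. The chromatin came from whole wandering larvae of the last instar, both sexes together, of flies that stably carry a transgene for br-RJ with GFP fused to its C-terminus, and Broad was pulled down through the GFP. There is 1 group of 2 biological replicates, both with the same transgene, so no comparison between genotypes, treatments or stages could be made. Whole larvae were used, and the tissue in which the protein bound cannot be told from these lists. The authors deposited a list of 30000 peaks for each replicate, a list of 30000 called on the pooled replicates, and an optimal set of 6635 peaks that passed the irreproducible discovery rate step. The optimal set is the 6635 strongest peaks of the pooled list, so a peak has the same signal value in both. The scale of the signal value is not stated, it differs between the pooled list and the lists of single replicates, and the number of reads behind a peak is unknown.

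Small heat shock proteins share an alpha-crystallin domain and hold unfolded proteins in a soluble state, without using ATP. In the fly most of their genes lie side by side at cytological region 67B. They are known for responding to 2 signals: heat, through heat shock factor bound to heat shock elements, and the moulting hormone ecdysone, which raises the expression of several of them at the end of larval life without any heat shock. Hsp83 encodes the cytosolic Hsp90 chaperone, which is abundant without stress and helps steroid receptors and kinases to fold. Broad, the product of br, is a family of zinc finger transcription factors encoded by an early gene of the ecdysone response.

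The sequences before the start sites of Hsp27, Hsp26 and Hsp23 are shown because the summits of the 3 promoter peaks of the cluster lie in them. Each peak also extends beyond its line, so a line does not hold every match in the peak. Each line gives 300 bases that end at the base before the most upstream annotated start site, in the direction of transcription, from the RefSeq genome assembly of the dm6 build. Capitals mark matches, on either strand, to paired heat shock units (GAANNTTC or TTCNNGAA, where N is any base), to GAGAG, the core of GAGA factor sites, and to TATAAA, the TATA box. Hsp27 is at chr3L:9383763-9384062 (plus strand), Hsp26 at chr3L:9377428-9377727 (minus strand) and Hsp23 at chr3L:9381582-9381881 (plus strand). The peak summits of the optimal set fall on base 159 of the Hsp27 line, base 147 of the Hsp26 line and base 220 of the Hsp23 line.
Hsp27: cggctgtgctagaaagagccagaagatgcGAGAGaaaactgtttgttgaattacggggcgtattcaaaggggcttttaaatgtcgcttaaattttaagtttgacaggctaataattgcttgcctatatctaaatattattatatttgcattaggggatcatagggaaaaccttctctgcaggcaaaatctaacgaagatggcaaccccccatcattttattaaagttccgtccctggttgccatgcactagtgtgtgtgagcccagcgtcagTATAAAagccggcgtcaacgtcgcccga
Hsp26: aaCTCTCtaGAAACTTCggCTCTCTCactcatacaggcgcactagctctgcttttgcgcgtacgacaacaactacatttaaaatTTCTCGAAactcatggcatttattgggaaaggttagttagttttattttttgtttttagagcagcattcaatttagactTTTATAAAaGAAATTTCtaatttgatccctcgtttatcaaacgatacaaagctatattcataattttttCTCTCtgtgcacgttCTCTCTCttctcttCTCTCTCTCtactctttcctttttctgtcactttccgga
Hsp23: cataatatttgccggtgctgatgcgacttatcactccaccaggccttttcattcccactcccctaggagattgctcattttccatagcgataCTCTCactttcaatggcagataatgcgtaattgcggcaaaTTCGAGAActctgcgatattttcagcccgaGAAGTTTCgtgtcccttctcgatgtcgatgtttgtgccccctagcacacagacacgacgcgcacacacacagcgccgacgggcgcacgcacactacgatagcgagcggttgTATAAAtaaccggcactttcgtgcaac

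In the optimal set, 8 peak summits lay in or within 2000 bp of the 8 genes, and every one of the 8 genes had at least 1. The share of all protein-coding genes that met the same criterion was 36.5%. The members are short genes of at most 4091 bp, and among the 9835 protein-coding genes no longer than that the share was 28.8%. Because the 7 small heat shock genes are packed into 14184 bp, 1 summit often counted for 2 or 3 of them, and the 8 genes are not 8 separate observations. In each replicate's own list of 30000 peaks all 8 genes also had a summit, as did 64.2% of protein-coding genes in replicate 1 and 64.6% in replicate 2. Among the 6635 strongest peaks of each replicate all 8 genes again had one, as did 37.6% of protein-coding genes in replicate 1 and 37.1% in replicate 2. With the narrower criterion of a summit no more than 1000 bp from an annotated start site, 6 of the 8 genes were called, against 24.3% of all protein-coding genes. Hsp67Ba and Hsp67Bc were the 2 that were not.

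Read by position rather than by gene, the peaks fell into a clear order of strength. Hsp27 had by far the highest signal, followed by Hsp83 and Hsp26, while the peaks at Hsp23 and Hsp22 were near the median of the set, which was 137. A peak of 500 or more lay within 2000 bp of 5 of the 8 genes and of 4.49% of all protein-coding genes. Those 5 genes are Hsp27, Hsp26 and Hsp83 together with Hsp23 and Hsp67Ba, which counted only through the peaks of their neighbours Hsp27 and Hsp26.

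**Figure D1:**
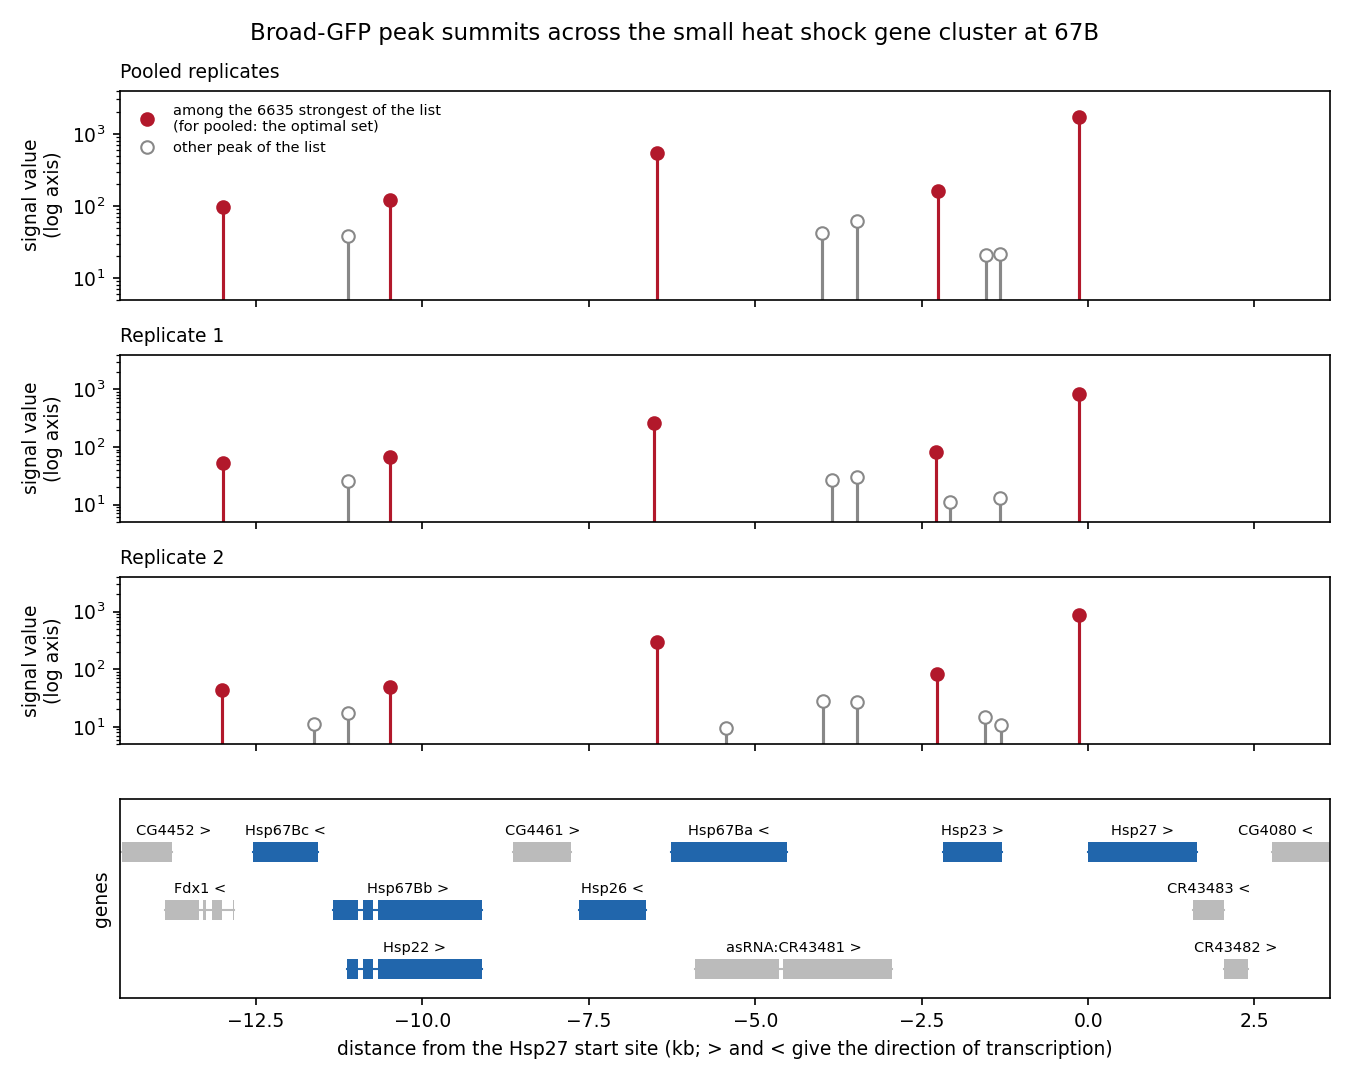
Signal value (log axis) of every peak summit across the 67B cluster in the pooled list, replicate 1 and replicate 2, against the distance in kb from the Hsp27 start site, with the annotated genes below (boxes are exons, members in blue). Filled red points are among the 6635 strongest of their list, and the same 5 positions are red in all 3 panels, with Hsp27 highest at 1688 in the pooled list.

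The cluster occupies 3L from 9371511 to 9385694, in bands 67B2 and 67B3. From left to right it holds Hsp67Bc, Hsp67Bb with Hsp22 inside it, CG4461, Hsp26, Hsp67Ba, the antisense RNA gene asRNA:CR43481, Hsp23 and Hsp27, and the pseudogene CR43483 overlaps its right end. Hsp67Bc, Hsp26 and Hsp67Ba are transcribed leftward and the other members rightward. The optimal set placed 4 summits in this span, or 0.282 per kb, against 0.0514 per kb over the whole of arm 3L. The span is also dense in genes, with 0.564 protein-coding genes per kb against 0.0974 on the arm. Per protein-coding gene the cluster therefore had 0.50 summits and the arm 0.528, so that the density in bp did not carry over to a density per gene. In the full pooled list the cluster had 0.635 summits per kb against 0.245 on the arm, and per protein-coding gene 1.12 against 2.51.

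At Hsp27, which encodes a nuclear small heat shock protein, a single peak of the optimal set lay at 9383671 to 9384122 (452 bp). Its summit at 9383921 was 142 bp upstream of the only annotated start site, 9384063, in intergenic sequence between Hsp23 and Hsp27. The signal was 1688, rank 22 of 6635 and 5 on arm 3L. Replicate 1 gave 830 with its summit at 9383920, and replicate 2 gave 856 with its summit at 9383933, at ranks 19 and 23 of their own lists. Position and rank were thus nearly the same in both replicates. Only 39 protein-coding genes (0.279%) had a stronger peak within 2000 bp. It was the one optimal summit near the gene.

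Hsp26 encodes a cytosolic small heat shock protein and is known for a promoter that is open before any heat shock. Its peak, at 9377420 to 9377728 (309 bp), had its summit at 9377581, which is 154 bp upstream of the more upstream of 2 start sites, 9377427, and lies between Hsp26 and the end of Hsp67Ba. The signal was 548 in the pooled list, with rank 339. Replicate 1 gave 262 and replicate 2 gave 292, with summits at 9377547 and 9377579 and ranks 376 and 304. The offset of 34 bp in replicate 1 was the largest at any of the 8 summits. No other summit of the pooled list of 30000 lay in or within 2000 bp of Hsp26.

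Hsp23, which encodes a cytosolic small heat shock protein, had a weaker peak in the corresponding place. Its summit at 9381801 was 81 bp upstream of the start site at 9381882, and the peak ran from 9381586 to 9382015. The signal was 161 (rank 2687), with 80.6 in replicate 1 and 82.5 in replicate 2. These replicate values were the most alike after those of the intronic Hsp83 peak. Hsp23 and Hsp27 are neighbours transcribed in the same direction, 2120 bp separate their summits, and the peak before Hsp27 ranked far above the one before Hsp23 in both replicates. In the coding exon and at the end of Hsp23 the pooled list also held 2 weak summits, of 21.0 and 21.4 (ranks 24176 and 23720 of 30000), outside the optimal set.

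Hsp22, whose product is found in mitochondria, shares its DNA with Hsp67Bb, which does not encode a typical member of the family. The annotation gives Hsp67Bb start sites at 9372722 and 9372931, and Hsp22 start sites at 9372931 and 9373997, so that the long Hsp22 transcript runs through Hsp67Bb and both genes end at 9374964. A peak at 9373355 to 9373784 had its summit at 9373570, which is 427 bp upstream of the internal Hsp22 start site and 639 bp inside the shared one at 9372931. It lay in exons of both genes, in the 3′ untranslated region of Hsp67Bb and the 5′ untranslated region of the long Hsp22 transcript. The signal was 120 (rank 4033), with 67.8 in replicate 1 and 49.4 in replicate 2, the widest relative gap between replicates among the 8 peaks. At the shared start site itself the pooled list held a summit at 9372947, only 16 bp away, with a signal of 38.2 and rank 14229. It was outside the optimal set, although both replicates had it, with 25.3 in replicate 1 and 17.4 in replicate 2.

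Hsp67Bc, which encodes a small heat shock protein that takes part in autophagy of misfolded proteins, had no optimal summit near its start site. The nearest was the Hsp22 peak, 1073 bp upstream of the Hsp67Bc start at 9372497. The list of replicate 2 held a summit 60 bp inside that start with a signal of 11.2 and rank 25577, and replicate 1 and the pooled list held none there. On its other side, 450 bp beyond the end of Hsp67Bc, the optimal set held a peak of 96.1 (rank 5348) with its summit at 9371061. That summit is 3 bp from a start site of Fdx1, which encodes a ferredoxin, and is nearer to it than to any start site of a heat shock gene. Replicates 1 and 2 gave it 51.6 and 44.1.

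Hsp67Ba, also a small heat shock gene, had no optimal summit near its start site at 9379534 either. It met the criterion through the Hsp26 peak, which lies next to its 3′ end and 1953 bp from its start. Upstream of the start the pooled list held 2 summits outside the optimal set, at 9380065 with a signal of 42.0 and at 9380589 with 60.8. Both lay in an exon of asRNA:CR43481, which is transcribed against Hsp67Ba. The second was placed at the same base in both replicates, with 29.8 in replicate 1 and 26.7 in replicate 2, while for the first only replicate 2 had a summit within 100 bp, at 9380078 (27.7). Replicate 1 had a summit at 9380212 (26.2), beyond that distance.

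**Figure D2:**
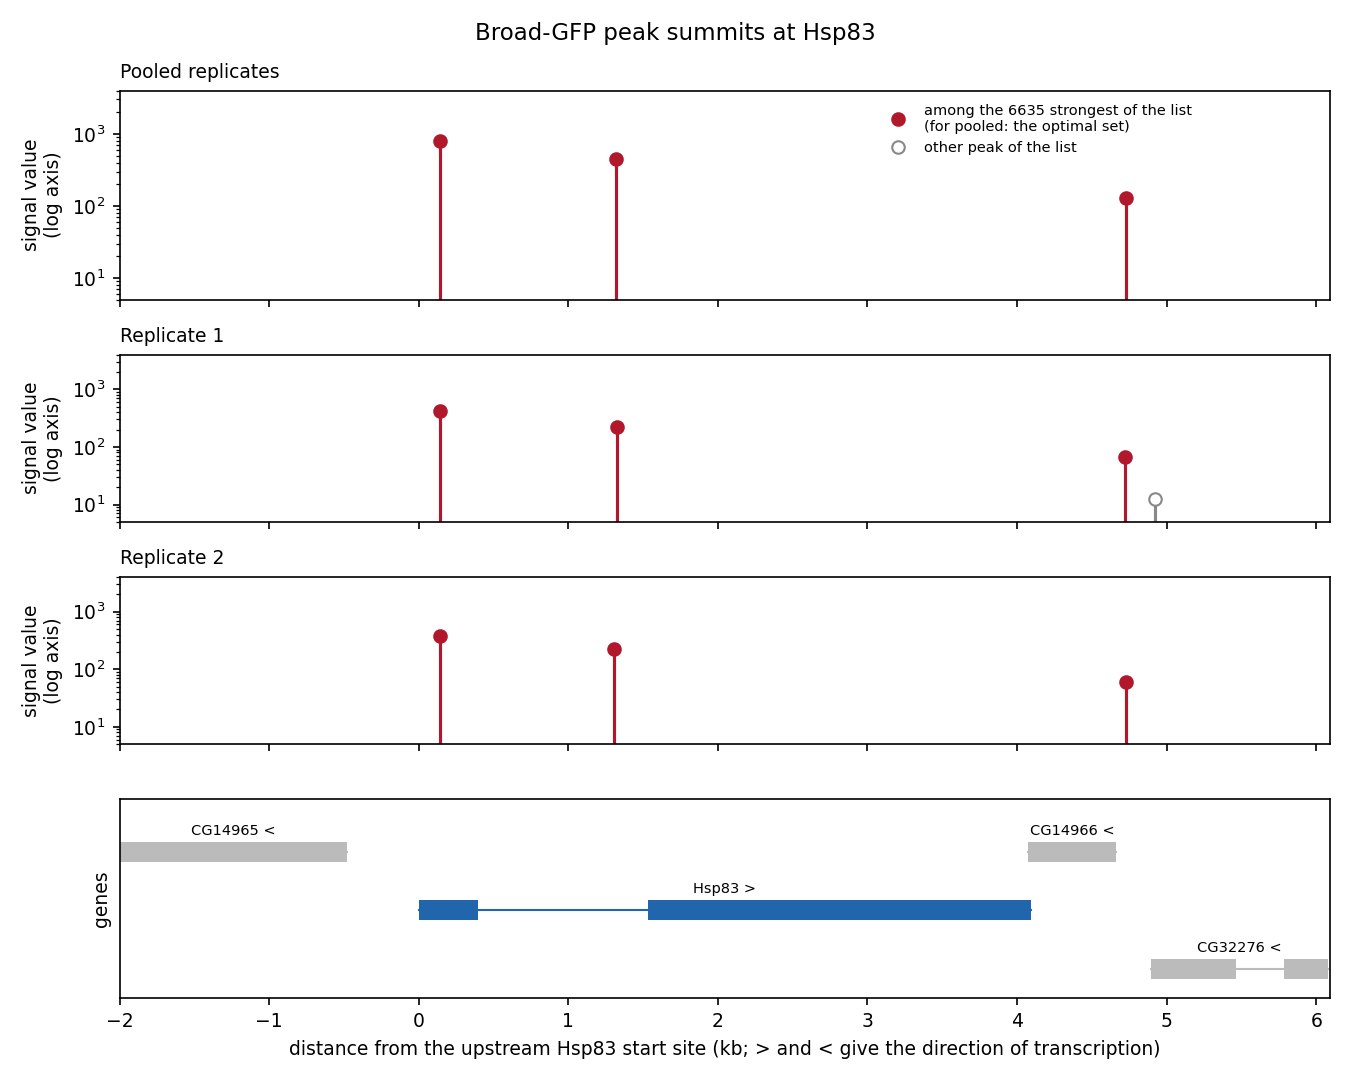
Signal value (log axis) of every peak summit within 2000 bp of Hsp83 in the pooled list, replicate 1 and replicate 2, against the distance in kb from the upstream Hsp83 start site, with the annotated genes below (boxes are exons). The 2 stronger summits, of 790 and 446 in the pooled list, lie in the first exon and near the end of the intron of Hsp83, and the weakest of the 3, of 128, lies just upstream of the CG14966 start.

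Hsp83 lies elsewhere on the arm, at 3L from 3192969 to 3197059 in band 63B11, and has start sites at 3192969 and 3193216. Its strongest peak, at 3192944 to 3193269 (326 bp), had its summit at 3193113. This is 103 bp upstream of the downstream start site and within the 5′ untranslated region of the transcript from the upstream one. The signal was 790 (rank 139), with 413 in replicate 1 and 377 in replicate 2. Ranks in the lists of the replicates were 130 and 164, and 261 protein-coding genes (1.87%) had a stronger peak within 2000 bp.

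A second strong peak lay inside the only intron of Hsp83, and Hsp83 was the one member with 2 optimal summits inside the gene itself. The peak ran from 3194121 to 3194417 (297 bp) with the summit at 3194286, 1173 bp from the first summit and 1070 bp inside the downstream start site. The signal was 446 (rank 512), and the replicates were almost equal, with 225.1 in replicate 1 and 224.7 in replicate 2. Their ranks, 520 and 517, also lay close together. No pair of heat shock units (GAANNTTC or TTCNNGAA), GAGAG or TATAAA was found within 50 bp of this summit. Farther out but still inside the peak, a GAANNTTC pair was centred 148.5 bp upstream of the summit. The AT-rich sequence within 50 bp, chr3L:3194236-3194336 on the plus strand, is shown for comparison with the promoters. It is all in lower case because it held none of these matches. The promoter lines are longer, so the windows are not alike in size.
Hsp83 intron: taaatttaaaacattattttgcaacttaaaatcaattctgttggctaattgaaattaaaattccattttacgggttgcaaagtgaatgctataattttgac

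The last peak near Hsp83 had a signal of 128 (rank 3679), with 67.7 in replicate 1 and 59.8 in replicate 2. Its summit at 3197694 was 63 bp upstream of the start site of CG14966, which is transcribed toward Hsp83, and 635 bp beyond the end of Hsp83. It was counted for Hsp83 by the limit of 2000 bp alone. The next summit beyond that limit, at 2069 bp from the gene, had a signal of 265. Around the cluster the nearest optimal summits outside the limit were 9313 bp to the left (140) and 11650 bp to the right (124), measured from the ends of the member genes. With 0.0514 optimal summits per kb on the arm, gaps of this size do not set the cluster's peaks apart.

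**Figure D3:**
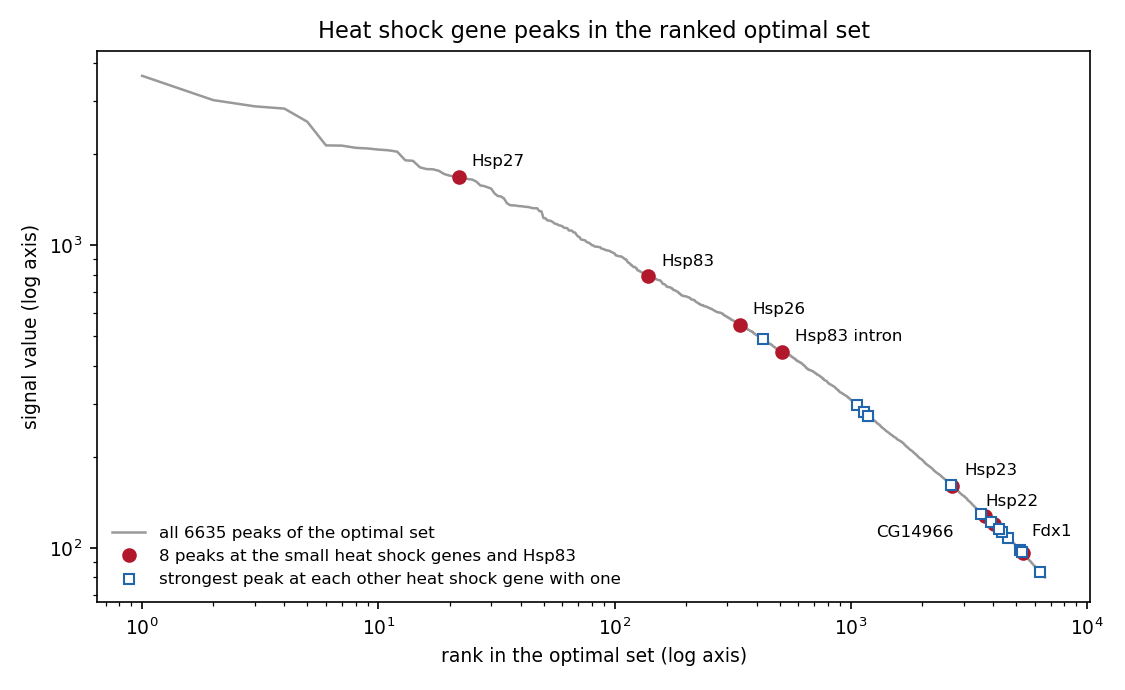
Signal value against rank (both log axes) for all 6635 peaks of the optimal set (line), with the 8 peaks at the small heat shock genes and Hsp83 (red) and the strongest peak at each other heat shock gene that has one of its own (blue squares). Hsp27, Hsp83, Hsp26 and the Hsp83 intron lie at ranks 22, 139, 339 and 512, and the other 4 lie at ranks of 2687 and above.

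The 8 peaks split into 2 levels, which were drawn after their signals had been seen. The 4 strong ones had signals of 446 to 1688 and the 4 weak ones of 96.1 to 161, with none between. The values were 225 to 830 against 51.6 to 80.6 in replicate 1, and 225 to 856 against 44.1 to 82.5 in replicate 2. The pooled list was called on these same replicates, so they are not separate evidence for the split. The weak peaks include those at the starts of Fdx1 and CG14966, which are not heat shock genes of the list. The strong peaks also had intervals of their own, 297 to 452 bp wide, whereas the weak ones had the width of 430 bp that 65.5% of the optimal set shared, with the summit at the middle. The −log10 q value, which is limited at 4.02 in this list, stood at that limit for 7 of the 8 peaks and at 3.55 for the one at Fdx1.

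Replicates were close at these summits. All 8 were found in both replicate lists within 100 bp, against 93.2% of the optimal set. The optimal set had passed the irreproducible discovery rate step, so likeness of the replicates was in part selected for. The log2 ratio of replicate 2 over replicate 1 had a median of -0.07 and ran from -0.46 at the Hsp22 peak to 0.16 at the Hsp26 peak. Over the 6181 matched peaks of the optimal set the median was -0.02 with an SD of 0.52. All 8 ratios lay within 1 SD of that median. With 2 replicates of 1 group no test of these differences was possible.

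**Figure D4:**
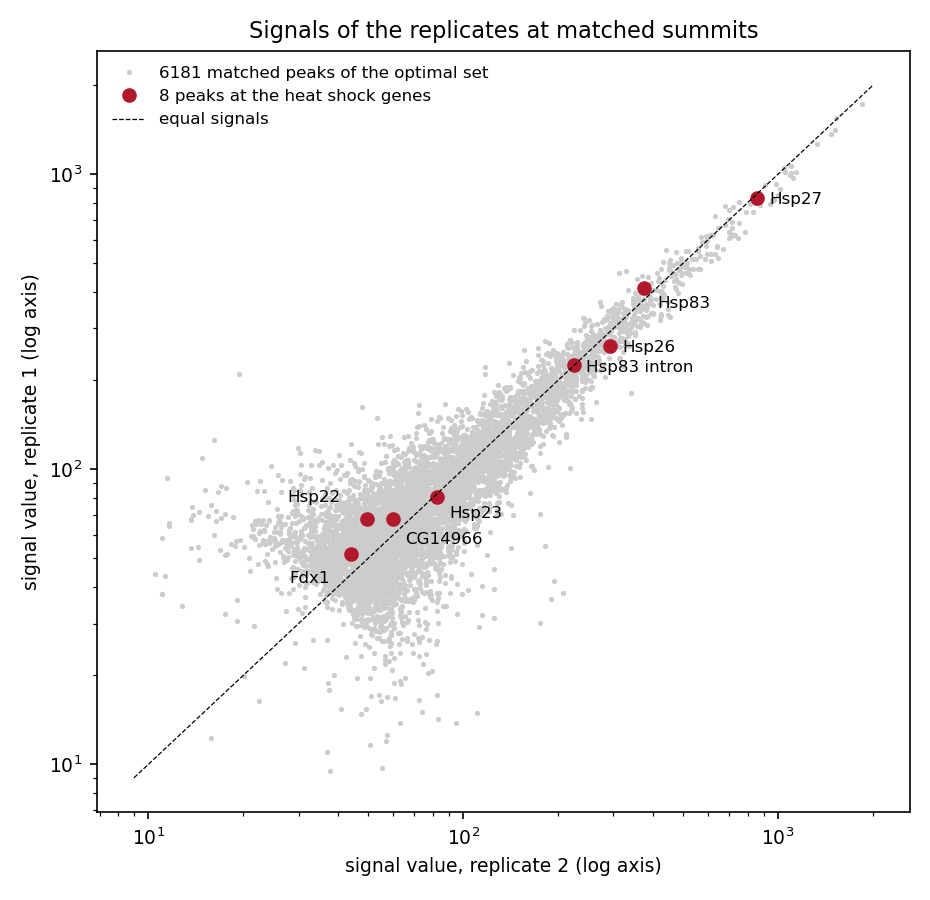
Signal values in replicate 2 and replicate 1 (log axes) for the 6181 peaks of the optimal set matched within 100 bp in both lists (grey) and the 8 peaks at the heat shock genes (red); the dashed line marks equal signals. The 8 points lie near the line, from 44.1 and 51.6 for the Fdx1 peak to 856 and 830 for Hsp27.

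Most of the 8 summits lay just before a start site: 6 of them lay 0 to 200 bp upstream of the nearest protein-coding start site, at 3 to 154 bp, against 21.5% of all optimal summits. The exceptions were the Hsp83 intron and Hsp22 summits. The summits at 3 and 63 bp lay before the starts of Fdx1 and CG14966, which are not heat shock genes of the list. That of the strongest Hsp83 peak was upstream of the downstream start site only. GC content within 50 bp of the summit ran from 24.8% in the Hsp83 intron to 63.4% at Hsp23, against a median of 36.6% over the optimal set. That of Hsp23 was above the 90th percentile of the set (52.1%), and that of Hsp27 was at its median.

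Heat shock elements are arrays of inverted units, of which a functional site usually holds at least 3. A complete array of 3 units, in which GAA and TTC alternate with 2 bases between them and which was searched on both strands, was found within 50 bp of 0 of the 8 summits and of 0.151% of all optimal summits. It was also absent within 200 bp of any of the 8, against 0.603% of all. In the whole regions searched, 2 complete arrays were present, 318 bp from the Hsp23 summit and 555 bp from the nearest optimal summit at the Hsp83 end. Pairs of units were more common. GAANNTTC lay within 50 bp of 2 of 8 summits, Hsp83 and Hsp26, against 2.79% of all optimal summits. The share of all promoters, taken as the longer window of 250 bases before to 50 after a start site, was 9.37%. TTCNNGAA was found within 50 bp of 0 of the 8 summits and of 2.43% of all, and within 100 bp of 2 of the 8 and of 4.91% of all.

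**Figure D5:**
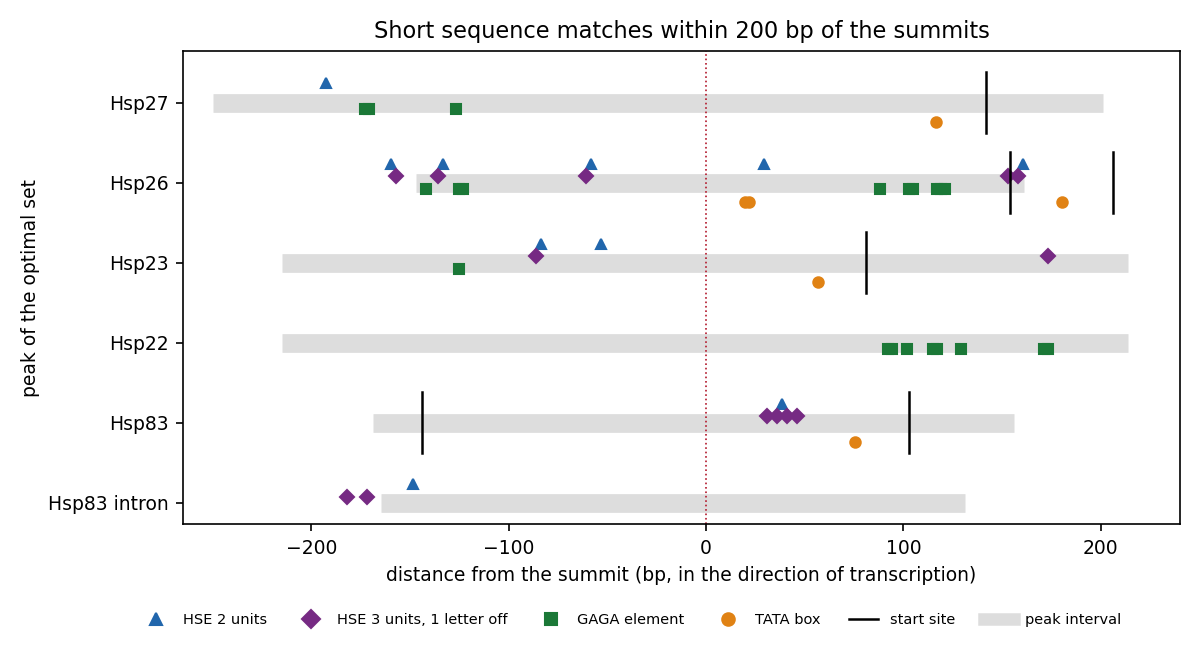
Matches to short sequences within 200 bp of 6 summits, by distance in bp from the summit in the direction of transcription, with peak intervals (grey bars) and annotated start sites (black lines); HSE stands for heat shock element. Matches at Hsp26 lie on both sides of the summit, the 3-unit arrays at Hsp83 with 1 letter off lie 31 to 46 bp downstream of it, and GAGA elements at Hsp22 lie 92 to 173 bp downstream.

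Imperfect arrays were searched after the data had been seen, with 1 of the 9 fixed letters allowed to differ. At Hsp83 4 such arrays overlapped, centred 31 to 46 bp downstream of the summit and just upstream of the TATA box at 75.5 bp. They form 1 run of 28 bases at chr3L:3193138-3193165 (plus strand), in which 4 of 6 possible units are complete, shown in capitals.
Hsp83 array: GAAgcctctaGAAgtTTCtagagacTTC
Hsp83 was the only one of the 8 with such an array within 50 bp of the summit, against 2.73% of all optimal summits. Within 200 bp such arrays were not particular to Hsp83. Hsp26 had 3 in one order of units and 2 in the other, the nearest centred 61 bp from its summit. Hsp23 had 2, the nearest at 86 bp, and the Hsp83 intron had 2 outside the peak, the nearest at 172 bp. The share of all optimal summits was not counted at that distance.

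At Hsp26 the units lay to both sides of the peak centre. A pair was centred 29.5 bp downstream of the summit, another 58.5 bp upstream, and further pairs 133.5 and 159.5 bp upstream and 160.5 bp downstream. The last of these lies just inside the upstream start site of Hsp26. GAGAG matched 9 times within 200 bp of the summit, counting overlaps, with 6 matches 88 to 121 bp downstream and 3 matches 123 to 142 bp upstream. The summit itself thus lay in the stretch between the GAGA tracts, next to a pair of overlapping TATAAA matches 19.5 and 21.5 bp downstream. That pair lies upstream of both annotated start sites. Another TATAAA match was centred 180.5 bp downstream of the summit, between the start sites, outside the peak and outside the sequence shown. Which of these matches acts as a TATA box was not tested.

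At Hsp27 the summit lay away from the matches. The nearest pair of heat shock units was centred 192.5 bp upstream of the summit, GAGAG 127 bp upstream, and the TATA box 116.5 bp downstream. At Hsp22 GAGAG matched 8 times, 92 to 173 bp downstream of the summit and on the side of the internal start site. A stretch that holds 5 of them is shown with the Hsp27 pair, at chr3L:9373660-9373689 and chr3L:9383719-9383738 (both plus strand), with matches on either strand in capitals.
Hsp22 GAGA stretch: CTCTCTCccaCTCTCtaatggagCTCTCTC
Hsp27 pair: tgtcaaGAAGTTTCtggttc
Within 50 bp of the summit GAGAG was found at 0 of the 8 peaks and at 13.1% of all optimal summits, and within 100 bp at 2 of the 8, Hsp22 and Hsp26, and at 27.4% of all. AGGTCA, the hexamer that nuclear receptors bind, was found within 100 bp of 0 of the 8 and of 3.51% of all. Farther out, but still inside the Hsp22 peak, an AGGTCA match was centred 147.5 bp downstream of the summit. The share of all optimal summits with AGGTCA was not counted at that distance. AAACAA, a stretch that occurs in described Broad sites, was found within 50 bp of 2 of the 8, Fdx1 and Hsp26, and of 20.7% of all. The nearest AAACAA was centred 39.5 bp from the summit at Fdx1 and 10.5 bp from it at Hsp26, where it was nearer than the TATAAA matches. A peak of 297 to 452 bp does not resolve which of these letters was bound, and a missing match says only that these letters are not in the window.

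Other heat shock genes were compared by the same criterion. Of 34 genes in 5 lists, 15 (44.1%) had an optimal summit within 2000 bp, close to the 36.5% of all protein-coding genes, and their strongest peaks had a median signal of 130. The strongest, 548, was the Hsp26 peak itself counted for its neighbour CG4461. The 34 genes include the non-coding gene lncRNA:Hsromega, which is among the 15, whereas the 36.5% covers protein-coding genes only. Of the 5 other small heat shock genes, CG4461 and CG14207 (130) were called, while CG7409, CG13133 and l(2)efl had no optimal summit. Of the Hsp90 family and its co-chaperones 3 of 7 were called, namely Hop (489), Trap1 (162) and Cdc37 (113). Hop is an older symbol that was assigned by hand to Stip1. The Hop peak, at rank 423, was the strongest that was not also a peak of the 67B cluster, although it lay 2747 bp from the start site of Hop.

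In the Hsp70 family 5 of 13 genes were called, Hsp68 (297), Hsc70-5 (274), Hsc70Cb (108), Hsc70-3 (98.8) and Hsc70-4 (83.3). The 6 heat-inducible Hsp70 genes, Hsp70Aa, Hsp70Ab, Hsp70Ba, Hsp70Bb, Hsp70Bbb and Hsp70Bc, had 0 summits even in the full pooled list, in which 61.1% of protein-coding genes had one. These genes are near-identical copies, and how reads that match several copies were treated is not given in the sources used here, so this cannot be read as a lack of binding. Of the 4 chaperonin genes Hsp60A was called (122), and of the 5 other genes of the response stv (282), lncRNA:Hsromega (274), DnaJ-1 (116) and Droj2 (97.1). Hsf, which encodes heat shock factor itself, had no summit in the pooled list. The same held for Hsc70-1 and Hsc70-2 of the Hsp70 family, and for CG16817, CHIP and Hsp60C, so the empty genes were not only the Hsp70 copies. At Hsc70Cb replicate 2 had no summit within 100 bp.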

How the data were processed

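Transcription factor ChIP-seq peak lists of 2 biological replicates of 1 group were used, from chromatin sonicated to 200 to 800 bp, per the labels. Per the deposited README files, each list derives from the replicate alignments and from 1 more file, which also enters the control-normalized tracks and was not used here. Which aligner, peak caller and irreproducible discovery rate cutoff were used is not stated. The signal value and the −log10 q value of each peak were used as the authors deposited them. Only the dm6 lists entered. Peaks carry no read counts, so no counting interval was computed.

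Gene positions came from Ensembl release 115 (BDGP6.54), with RefSeq coordinates identical for all 8 members. A summit is column 2 plus column 10, and coordinates are 1-based. Counts were made with Python 3.11.15, pandas 2.3.3 and numpy 2.4.6, and the counting and the motif search were checked on simulated summits and sequences. No test was made. The members, lists and motifs were chosen with earlier results of these data known. The older symbols Hop and CHIP were assigned by hand to Stip1 and STUB1. All members are named, and of the other lists those with an optimal summit. Some genes without one are also named, and the choice of these was made with the results already known. They are the 6 Hsp70 copies, Hsc70-1, Hsc70-2, Hsf, CG16817, CHIP, Hsp60C and 3 small heat shock genes. Alternatives covered windows, start sites, peak overlap, lists, match distance and motif windows; 2 motif searches, with 1 letter free or 200 bp, were added after the data had been seen.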

Additional observations from a re-analysis of the deposited data

How the results depend on the processing

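The 8 of 8 genes called stayed at 8 with 500, 1000 or 5000 bp around the gene, with overlap of the peak interval, and in the pooled list. The share of all protein-coding genes called in these settings was 27.6%, 30.7%, 49.9%, 37.4% and 61.1%, in that order. With the 6635 strongest peaks of either replicate alone, the genes called ranged from 8 to 8 and the summits from 8 to 8, the protein-coding genes called from 5178 to 5257, the median rank of the strongest summit per gene from 304 to 376 and the cluster density from 0.282 to 0.282 per kb. With the gene body alone 3 genes (Hsp22, Hsp67Bb and Hsp83) and 3 summits remained, and 2084 protein-coding genes (14.9%) were called. With optimal peaks above the median signal 5 genes and 5 summits remained, and 24.8% of all protein-coding genes were called. Within 1000 bp of a start site there were 5 summits. The full pooled list gave 13 summits, 8538 protein-coding genes and a cluster density of 0.635 per kb, which was 2.59 times that of the arm in the same list, against 5.49 times in the optimal set. Fewer or more peaks are counted by construction in these settings. Within 100 bp of the summit in place of 50 bp, TATAAA was found at 4 of 8 peaks in place of 1, and GAGAG and TTCNNGAA each at 2 in place of 0. The 4 peaks with TATAAA were Hsp83, Fdx1, Hsp26 and Hsp23. Over all optimal summits the share with TATAAA also rose, from 16.7% within 50 bp to 29.6% within 100 bp. No paired analysis was possible because there is only 1 group. Depth is unknown, so no error can be given for a single signal.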
